A study of Homo sapiens with 28 samples.

Results

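The regions described here are the protein-bound and histone-marked regions around 5 genes of the intestinal crypt and the Wnt pathway: LGR5, AXIN2, ASCL2, EPHB2 and SOX9. They were called by chromatin immunoprecipitation and sequencing (ChIP-seq) in GP5d cells, a long-established line from a human colon adenocarcinoma. A region, or peak, was a member if it overlapped a window of 100 kb to either side of 1 position per gene on the hg18 build. These positions were chr12 at 70120000 for LGR5, chr17 at 60988000 for AXIN2, chr11 at 2249000 for ASCL2, chr1 at 22910000 for EPHB2 and chr17 at 67629000 for SOX9. No measured value chose the members. Of 393268 peaks in 22 lists, 329 were members: 31 at LGR5, 93 at AXIN2, 88 at ASCL2, 78 at EPHB2 and 39 at SOX9. Distances below are from these positions to the peak's summit, negative towards lower hg18 coordinates. AXIN2 and ASCL2 are transcribed towards lower coordinates, so negative distances there lie on the side of the gene body. Without an hg18 annotation, exons, introns and untranslated regions are not named. Each window also holds neighbouring genes, and a peak in it was not assigned to any gene.

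In the crypt, Wnt ligands stabilise β-catenin, which binds TCF/LEF factors at enhancers and switches on genes of stem and progenitor cells. LGR5 is a receptor for R-spondins, which strengthen Wnt signalling, and marks crypt stem cells. AXIN2 is a scaffold of the β-catenin destruction complex and a negative feedback target of the pathway. ASCL2 is a basic helix-loop-helix factor of crypt stem cells, and SOX9 an HMG-box factor of the crypt base. EPHB2 is a receptor tyrosine kinase that positions cells along the crypt. RAD21 and SMC3 belong to the core of cohesin, a ring that extrudes chromatin loops; NIPBL loads it, and the zinc finger protein CTCF stops it. H3K4me1 is a histone mark of enhancers and promoter flanks. HNF4A is a nuclear receptor of gut epithelium, KLF5 a factor of proliferating crypt cells, JUND an AP-1 member, MYC a growth regulator, REST a repressor of neuronal genes and RFX2 an activator of cilium genes.

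Cells were harvested 72 hours after transfection with 50 nM of a neutral control siRNA or of an siRNA against RAD21 (siRAD21). All 11 targets were immunoprecipitated under both, with 1 library each. The series held 6 further libraries of nonspecific immunoglobulin G (IgG), whose peaks were not analysed here. The IgG background held 3914714 tags under control siRNA and 3293704 under siRAD21 for CTCF and RFX2. For the other targets it held 8916252 and 4101535, so not every IgG library served as background for these lists. The level of RAD21 after the knockdown was not measured here. There was no replicate of any target under either siRNA, so no difference between the siRNAs was tested and none has a replicate check. Control ChIP libraries held 3629966 to 19926326 tags after removal of repeated positions (median 9603820) and siRAD21 libraries 1747770 to 15263937 (median 7006171). The siRAD21 library was the shallower for 9 of 11 targets. The exceptions were MYC, at 1.02 times the control depth, and JUND, at 2.02 times. The control lists of NIPBL and JUND held no peak at a false discovery rate (FDR) under 5%. Targets and siRNAs were taken from the titles, although a separate siRNA label named other targets for most siRAD21 libraries. The antibody number given for H3K4me1 is known for general histone H3, and that for MYC belongs to a mouse antibody although its title says rabbit. Every H3K4me1 and MYC value carries that doubt.

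Of the 5 genes, EPHB2 alone had an entry in the RefSeq promoter sequences. Its promoter is shown because KLF5 had a peak within about 1 kb of the EPHB2 position under both siRNAs. It spans the 250 bases before the gene's start on the plus strand of GRCh38.p14 at chr1:22710588-22710837, and capitals mark the only match to the KLF/SP box GGGCGG, which begins at base -101 from the start:
EPHB2: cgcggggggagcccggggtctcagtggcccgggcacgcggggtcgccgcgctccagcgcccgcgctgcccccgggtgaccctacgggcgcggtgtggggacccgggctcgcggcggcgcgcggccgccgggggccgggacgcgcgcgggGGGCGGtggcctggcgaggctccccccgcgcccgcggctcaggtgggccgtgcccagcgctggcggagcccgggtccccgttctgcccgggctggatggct
G and C made up 84.8% of its bases, against a median of 58.0% over 27305 promoters of the same length. GGGCGG was found on either strand in 42.3% of those promoters. The TCF/LEF core ATCAAAG (2.28% of promoters), the E-box CACGTG (6.49%), the AP-1 site TGANTCA (6.6%) and the HNF4A core CAAAGTC (2.94%) were not in this window. The peaks are on hg18, so the sequence was not aligned with them. Both KLF5 peaks began above the EPHB2 position, by 764 bp under control siRNA and 417 bp under siRAD21. The printed bases lie before the gene's start, so the box is not shown to be under either peak.

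Control siRNA lists held 183 of the members and siRAD21 lists 146. That is 36.6 control peaks per locus, where the average over the genome for a window of this length was 17.1. All 11 targets were found near at least 1 of the 5 genes under control siRNA, and 10 under siRAD21, the missing one being RFX2. The H3K4me1 lists gave the most members, 48 control and 50 siRAD21 peaks. RAD21 had 27 and 14, SMC3 28 and 16, CTCF 22 and 21, and NIPBL 15 and 9. Among the factors, KLF5 had 15 and 7 peaks, MYC 12 and 4, HNF4A 11 and 6, REST 3 and 5, and RFX2 1 and 0. JUND went the other way, with 1 control and 14 siRAD21 peaks, from a whole list that was 2.63 times as long under siRAD21.

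**Figure D1:**
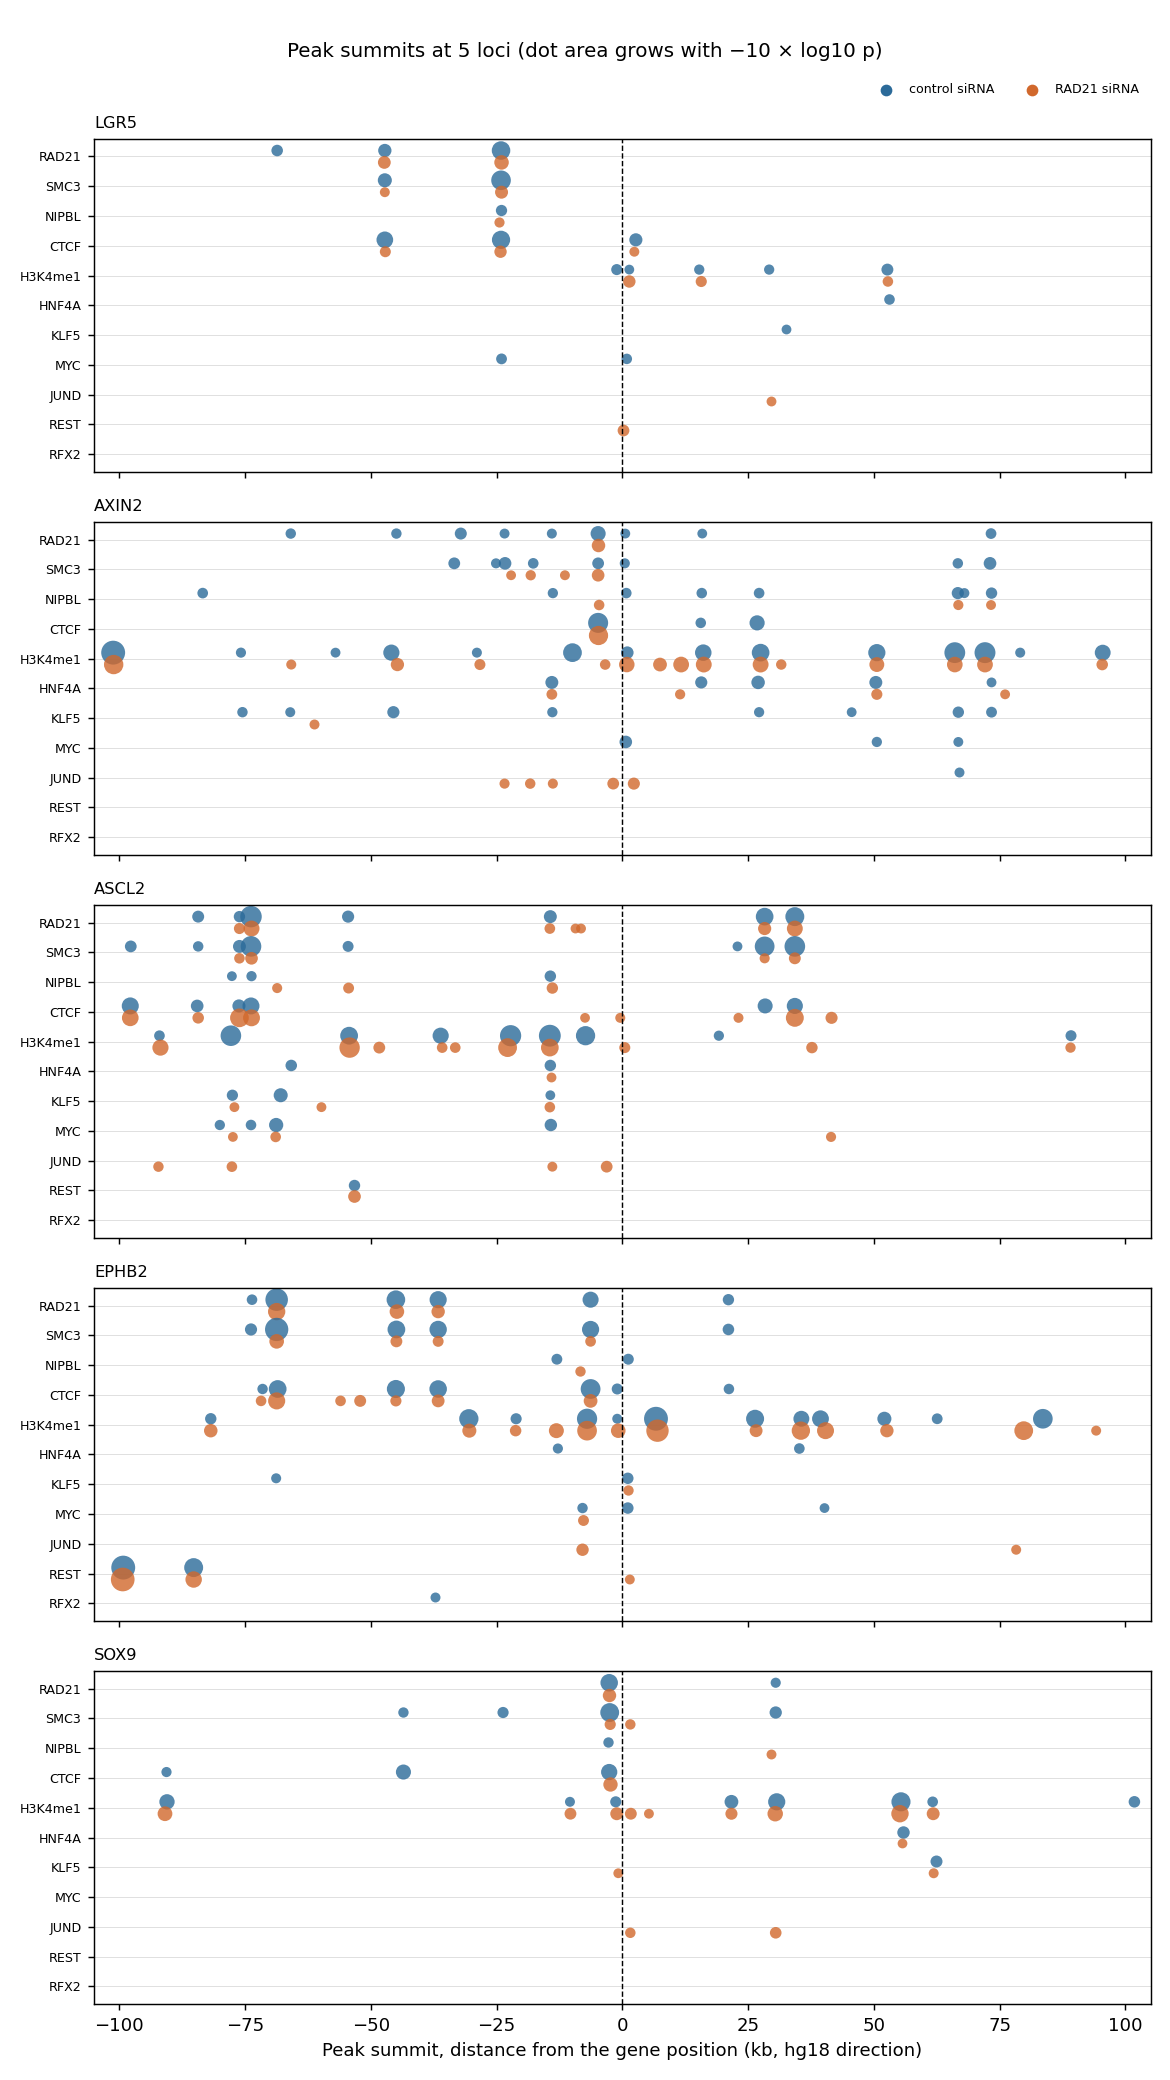
Peak summits of 11 targets (one line each) within 100 kb of the 5 gene positions, by distance in kb along hg18, with control siRNA in blue and RAD21 siRNA in orange; dot area grows with −10 × log10 p, and peaks that only reach into a window from outside are included. Columns of RAD21, SMC3 and CTCF dots stand at 2 places at LGR5 and at 5 each at ASCL2 and EPHB2, while at AXIN2 most RAD21 and SMC3 dots have no CTCF dot below them.

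**Figure D2:**
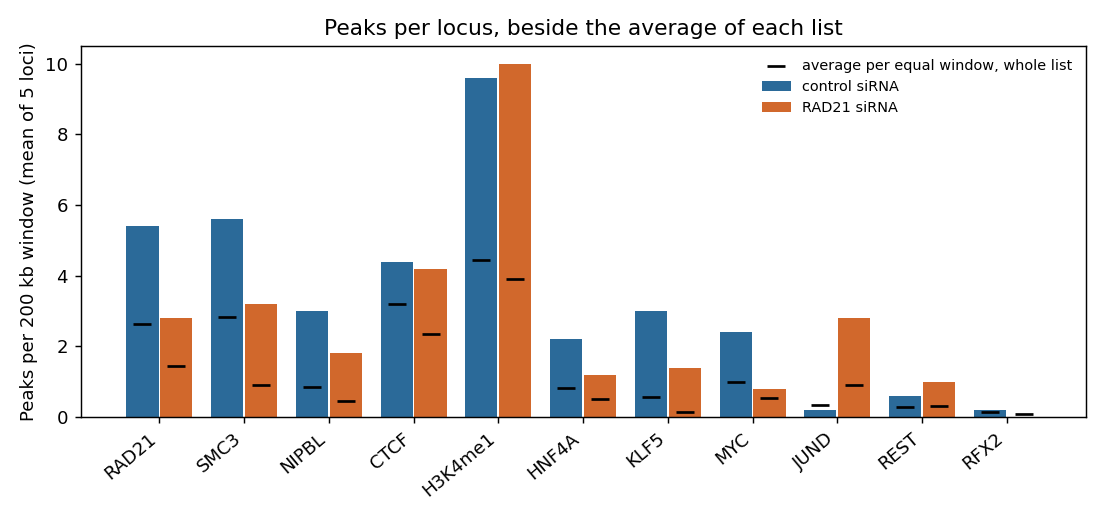
Mean number of peaks per locus (bars, 5 loci) for each target and siRNA, with the average number for a window of equal length over the whole list as a black dash. The bar is above the dash for every target and siRNA except control JUND (0.2 per locus against 0.34) and siRAD21 RFX2 (none).

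Control peaks are called retained here if they shared 1 bp or more with a peak of their own target under siRAD21, and lost if not. At the 5 loci 101 of 183 control peaks were retained, or 55.2% (95% Clopper-Pearson interval 47.7 to 62.5), against 49.4% of all control peaks of the 11 lists. All such intervals cover counting error only. The AXIN2 locus had the lowest share: 21 of its 59 control peaks (35.6%, 23.6 to 49.1) were retained, and without it the share was 64.5%. Shares by locus pool targets whose whole lists retained from 10.2% (KLF5) to 74.3% (H3K4me1). AXIN2 held 8 control peaks of KLF5 and 8 of NIPBL (list 17.4%), and the mix of targets was not adjusted for. At the other loci the shares were 66.7% at LGR5 (12 of 18), 65.1% at ASCL2 (28 of 43), 62.8% at EPHB2 (27 of 43) and 65.0% at SOX9 (13 of 20). In the other direction, 44 of 146 siRAD21 peaks had no control peak of their target under them, against 26.9% of all siRAD21 peaks. ASCL2 accounted for 18 of these and AXIN2 for 11.

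By target, SMC3 and H3K4me1 were those whose intervals lay wholly above the shares of their lists. SMC3 retained 15 of 28 peaks (53.6%, 33.9 to 72.5), where the list retained 28.4%. In percentage points the gap was smaller under some other settings and larger under others. With summits required to lie within 250 bp SMC3 retained 12 of 28 (42.9%, list 27.1%). Among peaks at an FDR under 5% it retained 6 of 25 (24.0%, list 11.2%). With equal numbers of the strongest peaks it retained 9 of 9 (list 64.4%). H3K4me1 retained 42 of 48 (87.5%, 74.8 to 95.3; list 74.3%), and 25 of 48 (52.1%) with summits within 250 bp, where 26044 of 61108 peaks of the list did. Its control members were stronger than the list, with a median −10 × log10 p of 493.88 against 201.28, while those of SMC3 were not (159.5 against 180.62). RAD21 itself retained 12 of 27 (44.4%, 25.5 to 64.7; list 46.6%) and CTCF 15 of 22 (68.2%, 45.1 to 86.1; list 63.1%). NIPBL and KLF5 each retained 4 of 15 peaks (26.7%, 7.79 to 55.1), where their lists retained 17.4% and 10.2%. The KLF5 share was 57.1% (4 of 7) without the AXIN2 locus, and none was retained at an FDR under 5% (0 of 10) or at a −10 × log10 p of at least 100 (0 of 6). HNF4A retained 4 of 11 (36.4%, list 33.4%), MYC 2 of 12 (16.7%, list 28.9%) and REST 3 of 3 (list 69.1%). At an FDR under 5%, HNF4A retained 2 of 7 and MYC 0 of 12. At a −10 × log10 p of at least 100 they retained 0 of 7 and 0 of 4. The single control peaks of JUND (list 35.1%) and RFX2 (list 13.2%) were not retained. Over the 6 factors other than CTCF, 13 of 43 control peaks (30.2%) were retained, against 30.4% in their lists.

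**Figure D3:**
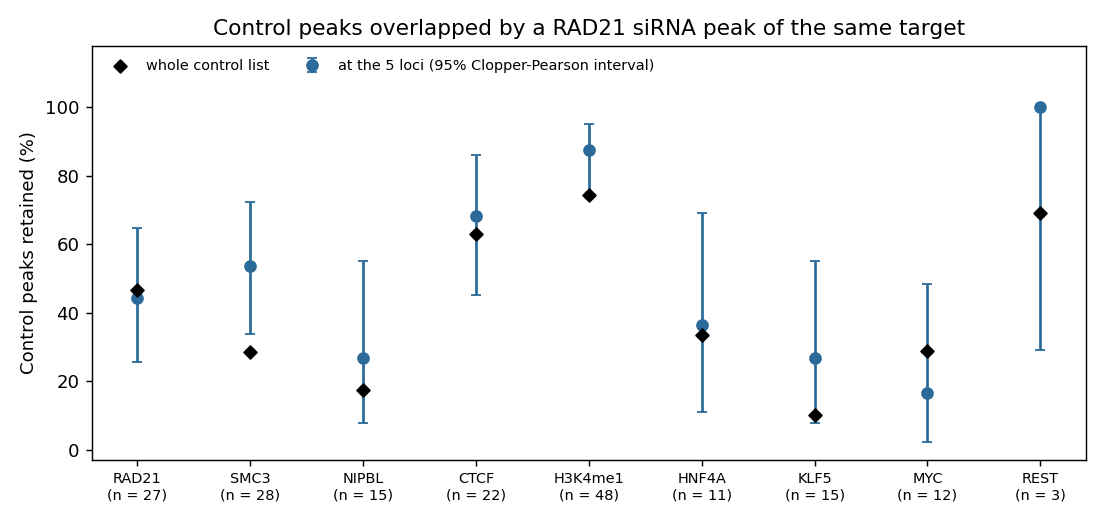
Percent of control peaks overlapped by a siRAD21 peak of the same target at the 5 loci (blue points, with 95% Clopper-Pearson intervals) and in the whole control list (black diamonds), for targets with more than 1 control peak; n is the number of control peaks at the loci. SMC3 lies above its list (53.6% against 28.4%), while RAD21, CTCF and HNF4A lie near theirs.

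Cohesin peaks near these genes that overlapped CTCF were stronger at the median than those that did not, with overlapping ranges. Of 27 control RAD21 peaks, 15 overlapped a control CTCF peak (55.6%, against 82.4% of the whole RAD21 list), and 11 of these 15 were retained. Their median significance, on the authors' −10 × log10 p scale where higher is stronger, was 754 (51.69 to 2413.74). The 12 RAD21 peaks without CTCF had a median of 74.5 (52.5 to 210.55), and 1 of them was retained, at 14.3 kb below the ASCL2 position. SMC3 gave the same picture. It had 16 peaks with CTCF (57.1%, against 78.6% of its list; median 776, range 69.6 to 2786), of which 12 were retained, and 12 without (median 97.8, range 52.56 to 189.34), of which 3 were retained. These 3 all lay at AXIN2 and matched siRAD21 peaks by overlap alone, with summits over 250 bp apart. In the whole lists, 54.6% of RAD21 peaks with CTCF and 9.39% of those without were retained, and for SMC3 34.9% and 4.29%. Strength and the presence of CTCF moved together, and their separate parts in retention were not tested.

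**Figure D4:**
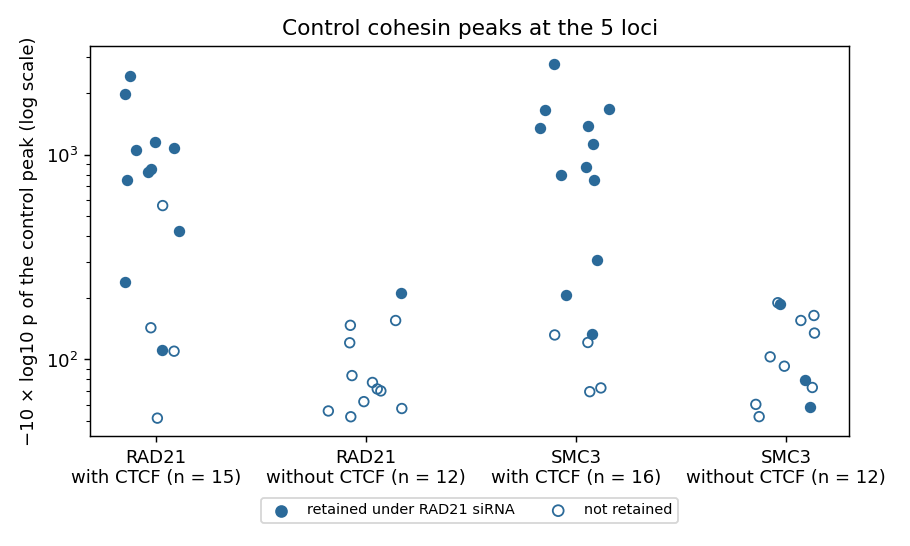
−10 × log10 p (log scale) of each control RAD21 and SMC3 peak at the 5 loci, split by overlap with a control CTCF peak; filled points were retained under RAD21 siRNA, open points were not, and the sideways scatter only separates the points. Of the points above 200, all are filled except a RAD21 peak of 564.58 at EPHB2, and all overlap CTCF except a RAD21 peak of 210.55 at ASCL2.

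Joining summits of all targets except H3K4me1 where neighbours lay within 500 bp gave 90 sites, of which 65 were present under control siRNA, 59 under siRAD21 and 34 under both. RAD21, SMC3 and CTCF stood together at 14 sites under control siRNA: 5 at ASCL2, 5 at EPHB2, 2 at LGR5 and 1 each at AXIN2 and SOX9. Under siRAD21 all 3 proteins were called together at 10 of these 14 and at no other site. Taken singly, 11 of the 14 sites kept a RAD21 summit, 12 an SMC3 summit and 12 a CTCF summit. Sites with 4 or more targets numbered 11 under control siRNA, 6 of them at AXIN2, and 3 under siRAD21, 1 each at LGR5, AXIN2 and ASCL2. Joined sites were not counted over the whole lists, so no count of sites here is shown to be particular to the 5 loci.

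Where a peak had its summit within 250 bp under both siRNAs, its tags per 1000000 tags of the library (RPM) could be set side by side. All 12 such RAD21 pairs had fewer RPM under siRAD21, as did 98.4% of pairs in the whole list, with a median siRAD21 to control ratio of 0.553 (range 0.231 to 0.757) beside 0.49 for the 16520 pairs of the whole list. All 12 SMC3 pairs were lower too (99.2% in the list), at a median of 0.319 (0.129 to 0.44) beside 0.377. The siRAD21 peaks were also shorter, at a median 0.694 of the control length for RAD21 and 0.648 for SMC3. For CTCF the 13 pairs split, with 6 below 1 (76.0% in the list) and a median of 1.08 (0.401 to 2.91), where the list's median was 0.763. The 25 H3K4me1 pairs had a median of 0.878 (list 1.03), the 4 of HNF4A 0.827 (list 0.672) and the 3 of REST 0.807 (list 0.994). A ratio of this kind compares shares of 2 libraries, and the list's median is the value against which to read it. Since a region can be 1 peak in one list and 2 in the other, overlapping control and siRAD21 peaks of a target were also joined into regions and their tags summed. All 12 RAD21 and 14 SMC3 regions were below 1 in RPM. Per bp of called peak, 2 of RAD21 and 1 of SMC3 were above 1, since their siRAD21 peaks were shorter: RAD21 at LGR5 47.2 kb below (1.71) and at SOX9 (1.27), and SMC3 at AXIN2 18.8 kb below (1.3).

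**Figure D5:**
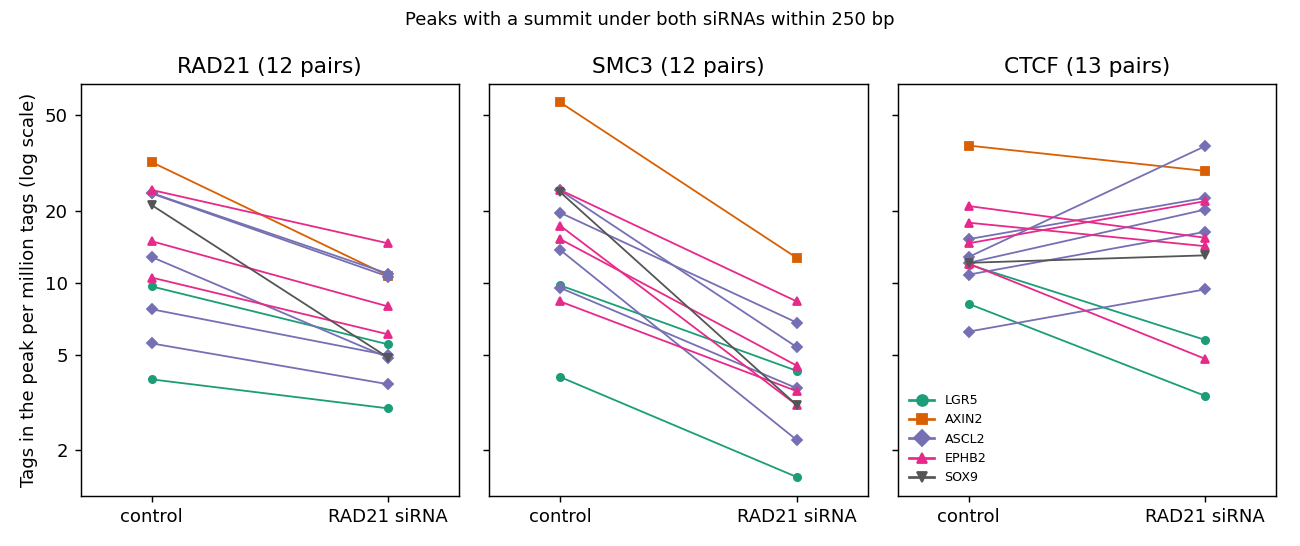
Tags in the peak as RPM (log scale) under control and RAD21 siRNA, for each peak with a summit under both within 250 bp; lines join the same peak, and colours and markers give the locus. All 12 RAD21 and all 12 SMC3 lines slope down, while in the CTCF panel the 5 ASCL2 lines all slope up and both LGR5 lines slope down.

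At LGR5, the stem cell receptor, cohesin lay at 3 sites under control siRNA, all on the lower side of the position, and 2 of them held CTCF. The site without CTCF, 68.6 kb below, held RAD21 alone (31 tags, −10 × log10 p 120.65), which was not retained. The stronger of the 2 CTCF sites was centred 24.3 kb below the position and held RAD21, SMC3, NIPBL, CTCF and MYC under control siRNA. The RAD21 peak there (chr12:70095146-70097132) held 142 tags under control siRNA, or 9.64 RPM (95% Poisson interval 8.12 to 11.4), and 50 under siRAD21, or 5.52 (4.1 to 7.28). SMC3 (chr12:70095043-70096751) held 167 and 39 tags, or 9.74 and 4.28 RPM, and CTCF (chr12:70095015-70096771) 143 and 24 tags, or 11.9 and 5.76 RPM. CTCF thus held fewer RPM together with both cohesin subunits. NIPBL remained with 28 and 9 tags, the latter at an FDR of 25.32%, and MYC (21 tags) had no siRAD21 peak. The weaker CTCF site, 47.2 kb below, held RAD21 with 58 and 27 tags, SMC3 with 69 and 14, and CTCF with 98 and 14. Its CTCF ratio of 0.413 and the 0.485 of the stronger site were the lowest of the CTCF pairs except for 0.401 at EPHB2. Another CTCF peak 2.7 kb above the position was also retained (60 and 17 tags).

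The LGR5 start itself carried few targets. Within 1000 bp of the position, MYC had a control peak (115 tags, chr12, summit at 0.9 kb) and REST a siRAD21 peak (45 tags, −10 × log10 p 130.82, chr12:70119432-70121115) with no control counterpart. H3K4me1 lay over it under both, as peaks of 95 and 207 tags under control siRNA and 1 peak of 195 tags under siRAD21. None of the LGR5 H3K4me1 peaks was strong: the highest control value was 142.01, at 52.7 kb, rank 38102 of 61108. HNF4A (16 tags, 53.1 kb) and KLF5 (21 tags, 32.6 kb) each had 1 control peak that was not retained. JUND had 1 siRAD21 peak, at 29.5 kb (29 tags).

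AXIN2, the feedback scaffold, had the most control peaks of the 5 loci, and its cohesin was mostly away from CTCF. Of its 13 cohesin sites under control siRNA, 2 held CTCF. The strongest RAD21 peak (chr17:60979374-60986771, summit 4.8 kb below the position) had 470 tags and a −10 × log10 p of 424.38, and was the only one of 9 RAD21 peaks that was retained, with 97 tags. The other 8 RAD21 peaks ranged from 51.69 to 146.84. At the same place SMC3 held 971 tags over 14668 bp under control siRNA and 116 tags over 4012 bp under siRAD21. A second siRAD21 peak in that span brought the joined region to 142 tags, or 56.7 and 15.6 RPM. CTCF there held 450 and 122 tags, or 37.4 (34.0 to 41.0) and 29.3 (24.3 to 35.0) RPM, the strongest control CTCF peak of the 5 loci by −10 × log10 p (1468.15). That CTCF peak was 6401 bp long under control siRNA and 1977 bp under siRAD21, so per bp of called peak the ratio was 2.54. NIPBL was called at this site only in the siRAD21 list (74 tags, FDR 19.86%, chr17:60982613-60986540), where the control list had no NIPBL peak.

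SMC3 retained 4 of its 8 AXIN2 peaks. The strongest by −10 × log10 p that had no siRAD21 peak was 73.1 kb above the position (chr17:61059915-61062348, 120 tags, 189.34). A peak with more tags, 33.4 kb below (366 tags, 134.56), was not retained either. The site 73.1 kb above also held RAD21, NIPBL, HNF4A and KLF5 under control siRNA, and NIPBL alone under siRAD21, at an FDR of 27.99%. Another site with 5 control targets, 66.8 kb above, held SMC3, NIPBL, KLF5, MYC and JUND. Under siRAD21 it again held NIPBL alone, at an FDR of 25.26%. A site centred 13.9 kb below held RAD21, NIPBL, HNF4A and KLF5 under control siRNA and HNF4A and JUND under siRAD21. CTCF peaks at 15.6 kb (33 tags) and 26.8 kb (87 tags, −10 × log10 p 436.68) were not retained either.

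Of 17 control peaks of the 6 factors at AXIN2, 2 were retained. The 6 lists together retained 30.4%, but their mix differs, since it includes REST (69.1%), which had no AXIN2 peak. KLF5 had 8 control peaks, 15 to 91 tags each, and none was retained (list 10.2%), while its siRAD21 library had 0.355 times the control's tags. MYC had 3, none retained (list 28.9%), from ChIP libraries of about equal depth. The IgG background of the MYC lists was shallower under siRAD21, with 4101535 tags against 8916252. HNF4A retained 2 of 5, at 14.0 kb below (63 and 23 tags) and 50.4 kb above (43 and 21 tags), and its strongest control peak at 27.0 kb (chr17:61014051-61016629, 139 tags, 254.47) had no siRAD21 peak. JUND had 5 siRAD21 peaks, the strongest at 2.3 kb (59 tags, 152.21), none over its single control peak at 66.9 kb. H3K4me1 was retained at 11 of 14 peaks (list 74.3%). Its broad domain below the start covered 21067 bp with 2043 tags under control siRNA and 24381 bp with 1003 tags under siRAD21. All 8 AXIN2 pairs of H3K4me1 had lower RPM under siRAD21, with ratios of 0.562 to 0.954, where the list's median was 1.03. Joined into 10 regions, 8 were below 1, over a range of 0.562 to 1.06.

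At the AXIN2 start, within 1000 bp of the position, RAD21 (113 tags), SMC3 (73), NIPBL (66), MYC (113 tags, chr17:60987934-60990928, 182.69) and H3K4me1 (515) had control peaks. Of these 5 targets H3K4me1 alone had a siRAD21 peak there, with 216 tags (275 in the joined region). The RAD21 and SMC3 peaks at the start were weak, at 52.5 and 60.34.

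ASCL2, the stem cell transcription factor, had 5 paired CTCF peaks, and each held more RPM under siRAD21 while RAD21 and SMC3 held fewer. CTCF at 97.8 kb below the position (chr11:2150318-2152190) had 130 and 68 tags, or 10.8 (9.03 to 12.8) RPM under control siRNA and 16.3 (12.7 to 20.7) under siRAD21. At 76.2 kb below it had 154 and 155 tags, or 12.8 (10.9 to 15.0) and 37.2 (31.6 to 43.6) RPM. At 73.8 kb below the values were 146 and 84 tags, or 12.1 and 20.2 RPM. The remaining pairs were at 84.5 kb below, with 6.24 and 9.37 RPM, and at 34.3 kb above, with 15.2 and 22.6 RPM. The 5 ratios ran from 1.48 to 2.91, and 8.08% of all CTCF pairs reached 1.48 or more. Peak lengths were 0.841 to 1.22 times those of control. Joined into 4 regions, the ratios were 1.48 to 2.3 in RPM and 1.33 to 2.05 in RPM per bp.

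At these places cohesin was lower in RPM. RAD21 had 349 and 99 tags at 73.8 kb below (chr11:2174311-2177277, −10 × log10 p 1977.46, rank 334 of 36204), 347 and 96 at 34.3 kb above, 188 and 44 at 28.3 kb above, and 82 and 34 at 76.1 kb below. The 5 RAD21 pairs of ASCL2 had ratios of 0.381 to 0.674 and the 4 SMC3 pairs 0.16 to 0.381. At 28.3 kb above, RAD21 and SMC3 (235 and 20 tags) were retained and the CTCF peak beside them (89 tags, 416.71) was not. At 97.8 and 84.4 kb below it was the reverse: CTCF was retained, and SMC3 (44 and 99 control tags) and, at the second of these, RAD21 (124 control tags) were not. The strongest cohesin peak at ASCL2 without a siRAD21 counterpart was RAD21 at 54.5 kb below (219 tags, 154.99). RAD21 had 7 peaks at ASCL2 under each siRNA. Its 2 siRAD21 peaks with no control peak, at 9.3 and 8.2 kb below, were weak (14 and 17 tags). The siRAD21 peaks of CTCF with no control peak lay at 41.6 kb above (26 tags, 151.79), 23.1 kb above, 0.4 kb below and 7.4 kb below, the last 3 with 10 to 18 tags.

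H3K4me1 covered long domains at ASCL2. The largest, with its summit 54.3 kb below, spanned 24326 bp with 3025 tags (160 RPM) under control siRNA and 30752 bp with 2303 tags (231 RPM) under siRAD21. At 14.4 kb below it held 713 tags over 7228 bp and 792 tags over 15770 bp, or 37.8 and 79.6 RPM. The wide siRAD21 domain there also covered a control domain at 7.3 kb below (802 tags), and the joined region held 80.3 and 79.6 RPM. At 92.0 kb below, 66 tags (3.5 RPM) stood against 146 (14.7 RPM). The ratios of the 4 pairs ran from 1.44 to 4.19, with length ratios of 1.26 to 2.23. Joined into 6 regions, 3 were above 1, the largest domain at 1.29 (184 and 238 RPM), so the single-peak ratios at ASCL2 rest in part on where the lists split the mark.

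The ASCL2 site centred 14.1 kb below the position carried the most targets of all 90, with 6 over both siRNAs. Under control siRNA it held RAD21 (114 tags), NIPBL (75), HNF4A (43), KLF5 (49) and MYC (107). Under siRAD21 it held RAD21 (45 tags), NIPBL (31), HNF4A (27), KLF5 (17) and JUND (50), and MYC had no peak. HNF4A and KLF5 had 4.8 and 5.29 RPM there under control siRNA and 5.41 and 5.17 under siRAD21, ratios of 1.13 and 0.977 beside list medians of 0.672 and 0.509. The siRAD21 peak of HNF4A was 1.83 times as long and that of KLF5 0.67 times, so per bp the ratios were 0.616 and 1.46. Farther below, between 65.8 and 68.8 kb, lay the strongest control peaks of KLF5 (chr11:2179392-2184320, 310 tags, 306.73, rank 316 of 7791) and MYC (chr11:2179184-2184159, 269 tags, 324.63, rank 825 of 13589) at the 5 loci, with HNF4A (192 tags) in the same stretch. Of these 3, MYC alone was retained, with 119 tags at an FDR of 23.13%. At the ASCL2 start no target had a control peak within 1000 bp. Under siRAD21, CTCF (18 tags, 57.84) and H3K4me1 (86 tags, 95.27) did, each weaker than most siRAD21 peaks of its target at the locus.

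SOX9, the crypt-base HMG-box factor, had 1 site of RAD21, SMC3 and CTCF, 2.6 kb below the position. RAD21 (chr17:67625461-67631570) held 310 tags over 6110 bp under control siRNA, or 21.1 RPM (18.8 to 23.5), and 44 tags over 1115 bp under siRAD21, or 4.86 RPM. SMC3 (chr17:67624888-67631582) held 409 and 28 tags, or 23.9 and 3.08 RPM. The ratios were 0.231 and 0.129, and the siRAD21 peaks were 0.182 and 0.183 times as long as the control peaks. CTCF at the same site (chr17:67625758-67627430) had 145 and 54 tags, or 12.1 and 13.0 RPM, a ratio of 1.08. The broad control cohesin peaks reached over the SOX9 start, and within the span of the control SMC3 peak there was a second siRAD21 peak of SMC3 at 1.6 kb (36 tags). Counted together, the 2 SMC3 peaks gave 7.03 RPM, a ratio of 0.295, within the range of the SMC3 regions at the other loci (0.16 to 0.669). NIPBL had a control peak at 2.8 kb below (38 tags) and none there under siRAD21.

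Farther out at SOX9, RAD21 (55 tags) and SMC3 (77 tags, 163.98) shared a control site at 30.5 kb without CTCF. Neither was retained, and the siRAD21 list of JUND had a peak there (42 tags, 124.47). CTCF peaks at 43.5 kb below (63 tags, 423.83) and 90.6 kb below (50 tags) were not retained. All 8 control H3K4me1 peaks were retained, and the strongest, at 55.4 kb (chr17:67682029-67686729), held 433 and 206 tags, or 22.9 and 20.7 RPM. HNF4A lay in that domain under both siRNAs (69 and 30 tags, the latter at an FDR of 11.68%). KLF5 lay at 62.3 kb (113 and 27 tags, the latter at an FDR of 21.49%). KLF5 also had a weak siRAD21 peak 0.8 kb below the position (9 tags, 50.65). MYC, REST and RFX2 had no peak in the SOX9 window.

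At EPHB2, the receptor that sorts crypt cells, lay the strongest cohesin of the 5 loci by −10 × log10 p. By control RPM the peaks 4.8 kb below AXIN2 were higher, at 31.9 for RAD21 and 56.7 for SMC3. RAD21 at 68.7 kb below the EPHB2 position (chr1:22839970-22842328) had 359 tags under control siRNA, a −10 × log10 p of 2413.74 and rank 116 of 36204. Under siRAD21 it held 132 tags, or 14.6 RPM against 24.4. SMC3 there (chr1:22840103-22842506) had 419 and 76 tags, or 24.4 and 8.35 RPM, at rank 82 of 38799. CTCF had 176 and 91 tags, or 14.6 and 21.9 RPM. Another CTCF region above 1 lay 71.6 kb below (29 and 14 tags, or 2.41 and 3.36 RPM), and the other 3 joined EPHB2 regions of CTCF were below 1. KLF5 had a weak control peak at this site (30 tags) that was not retained.

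A further 2 sites held all 3 proteins under both siRNAs. At 45.0 kb below, RAD21 had 155 and 55 tags, SMC3 143 and 32, and CTCF 144 and 20. At 36.6 kb below, RAD21 had 220 and 72, SMC3 261 and 41, and CTCF 214 and 59. CTCF was 12.0 and 4.8 RPM at the first of these, the lowest CTCF ratio of the 5 loci (0.401), and 17.8 and 14.2 at the other. The strongest cohesin peak without a siRAD21 counterpart anywhere near the 5 genes was RAD21 at 6.3 kb below the EPHB2 position (chr1:22902700-22904568, 141 tags, 564.58). At that place SMC3 (296 and 28 tags) and CTCF (251 and 64 tags) were retained. The site 21.1 kb above, with RAD21 (37 tags), SMC3 (42) and CTCF (53), had no siRAD21 peak of any of them. CTCF had siRAD21 peaks with no control peak at 56.0 kb below (17 tags) and 52.1 kb below (42 tags, 141.21).

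The EPHB2 start, whose promoter sequence is printed above, carried NIPBL (58 tags), CTCF (45), KLF5 (47), MYC (51) and H3K4me1 under control siRNA. KLF5 (chr1:22910764-22912545, 114.58) had its summit 1.1 kb above the position under both siRNAs, with 47 tags (5.08 RPM, 3.73 to 6.75) and 9 tags (2.74, 1.25 to 5.2). It was the only factor retained at any of the 5 starts. A weak REST peak (10 tags, 53.96) appeared at 1.5 kb under siRAD21. H3K4me1 just above the start (chr1:22910748-22918994) had the highest −10 × log10 p of any member, 3100, a value it shared with 1 peak each at AXIN2 (H3K4me1) and EPHB2 (REST). It held 1031 tags under control siRNA and 450 tags under siRAD21, or 54.6 and 45.2 RPM. In all, 11 of 12 H3K4me1 peaks at EPHB2 were retained. At 7.9 kb below, MYC had 132 and 37 tags, the latter at an FDR of 23.13%. JUND had its strongest member there (93 tags, 170.48) in the siRAD21 list.

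REST had its 2 strongest members at EPHB2 and kept both. At 99.2 kb below (chr1:22805374-22814475) it held 822 and 411 tags, or 121 and 97.8 RPM, with −10 × log10 p of 3100 and 2981.59. The peak there was 9102 bp long under control siRNA and 3380 bp under siRAD21, so per bp the ratio was 2.17. At 85.2 kb below REST held 152 and 90 tags, or 22.4 and 21.4 RPM, with a ratio of 1.37 per bp. The other retained REST peak, 53.3 kb below ASCL2, had 85 and 39 tags. RFX2 had its only member 37.2 kb below EPHB2 (13 tags, 56.11), and HNF4A had peaks at 12.8 kb below (18 tags) and 35.2 kb above (39 tags), none of which was retained.

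Across the 5 starts, the number of targets within 1000 bp summed to 15 under control siRNA and 11 under siRAD21. H3K4me1 was the target found most often, at 4 of 5 starts under control siRNA and at all 5 under siRAD21. MYC was at 3 starts under control siRNA, LGR5, AXIN2 and EPHB2, and at none under siRAD21. Its siRAD21 ChIP library was as deep, but the IgG background was shallower. The siRAD21 list held 936 MYC peaks at an FDR under 5%, against 13589 in the control list. RAD21 was at the AXIN2 and SOX9 starts under control siRNA and at none under siRAD21.

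Most control peaks of HNF4A, KLF5 and MYC lay in H3K4me1 regions of the same siRNA: 11 of 11 for HNF4A (87.8% in the list), 11 of 15 for KLF5 (78.2%) and 10 of 12 for MYC (86.1%). The single JUND peak did (80.5%), and of REST 1 of 3 (14.7%) and of RFX2 0 of 1 (43.6%). For the loader NIPBL the count was 12 of 15 (83.2%). Of the control RAD21 peaks, 14 of 27 did (31.2% in the list), and of SMC3 13 of 28 (34.1%). Under siRAD21, 13 of 14 JUND peaks lay in H3K4me1 (87.5%). None of the 14 JUND peaks overlapped a control JUND peak, in a list where 86.7% did not, and each had an FDR of 6.19%. Of 34 sites with at least 1 of the 6 factors under control siRNA, 10 also held RAD21 or SMC3, and 6 of these were at AXIN2. At 7 sites 2 or more factors met under control siRNA, 5 of them at AXIN2, against 5 such sites under siRAD21, 1 of them at AXIN2.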

How the data were processed

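ChIP-seq peak lists of 22 libraries from GP5d cells were used. The submitters' processing notes name CASAVA 1.4, BWA, MACS 1.4 and hg18. Per the file headers, MACS 1.4.0rc2 called peaks library by library at a p cutoff of 1e-05. Each deposited peak has a count of tags, a score of −10 × log10 p (50 and above), a fold enrichment over background as a linear ratio, and an FDR in percent, all the authors' own. The files hold 10 columns under 9 names. The unnamed one was read as the FDR because its number of values under 5 equals the number given per the labels in all 22 libraries.

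Members, overlaps, sites and RPM (tags per 1000000 tags of the depth in the deposited headers) were computed here with python 3.11.15, numpy 2.4.6, pandas 2.3.3, scipy 1.17.1 and matplotlib 3.10.9, and the code was checked on made-up intervals. Tags are counts of filtered reads, so Poisson and Clopper-Pearson intervals (95%) cover counting error only. The plan for naming regions took sites at the starts and the 3 sites per locus with the most targets. Per target and locus it took the strongest control peak and the strongest siRAD21 peak without a control peak. It also took the strongest lost cohesin peak per locus. Not all of these are named in the text, and several siRAD21 peaks without a control peak are left out. Regions named outside this plan were chosen after their values were seen. Joining overlapping peaks into regions was added after seeing the data. Other windows, thresholds, overlaps, joining distances, targets and loci were tried. The gene positions, members and lists were chosen with earlier results of these data known.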

Additional observations from a re-analysis of the deposited data

How the results depend on the processing

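Of 83 values recomputed for the 8 counts and shares that summarise the loci, 61 stayed within 1.5 times the main count, or inside the main share's interval, and 22 did not. Several settings dropped few peaks and some intervals were wide, so many values could hardly move. The 61 are therefore no measure of how firm the results are. Control peaks numbered 113 within 50 kb, 322 within 200 kb and 111 at a −10 × log10 p of at least 100, against 183. The siRAD21 peaks numbered 247 within 200 kb, 97 at an FDR under 5%, 80 at a −10 × log10 p of at least 100 and 96 without H3K4me1, against 146. The retained share of 55.2% became 43.7% without H3K4me1, 64.5% without the AXIN2 locus and 41.0% where summits had to lie within 250 bp (whole lists 39.1%). With equal numbers of the strongest peaks per target it was 78.5% (whole lists 67.8%), and for RAD21 91.7% (whole list 73.0%). That setting shortens the control lists and drops their weaker peaks together, and JUND (0 of 1) and REST (3 of 3) did not move. Sites of RAD21, SMC3 and CTCF numbered 24 and 16 within 200 kb under control siRNA and siRAD21. Under control siRNA there were 9 without the ASCL2 locus and 9 without EPHB2, and under siRAD21 there were 6 at an FDR under 5%. Targets at the starts summed to 8 and 7 at an FDR under 5% and to 7 and 5 at a −10 × log10 p of at least 100. Within 2500 bp there were 18 under siRAD21. RAD21 retained 61.1% without AXIN2 and 35.0% without ASCL2. Leaving out MYC was added after seeing the data and gave 57.9% retained. No paired analysis was possible because each target has 1 library per siRNA. Depth limits the calls: a region missing from the shallower library was not detectable there at this depth, not shown to be absent.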
